A study of Homo sapiens with 16 samples.

Results

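The comparison of Hep3B cells raised in increasing concentrations of Sorafenib (IR cells) with parental Hep3B cells rests on 4 of the 16 libraries of the study, 2 in each group, taken by their labels. It covers 15019 of 26258 listed genes, those with at least 1 CPM (counts scaled to the total reads of a library) in at least 2 libraries. The study set out to learn what sets Sorafenib-resistant liver cancer cells apart, and its RNA libraries, 2 for each group, come from the hepatocellular carcinoma (HCC) lines Huh7 and Hep3B, each as parental, DMSO, IR and CR cells. CR cells were kept in a constantly high concentration of the drug, and the text of the study does not describe the cells labeled DMSO. The labels give 7 µM Sorafenib for IR and CR libraries and none for parental and DMSO libraries, so the presence of the drug, the time in culture and the selection of resistant cells cannot be told apart in any comparison with parental cells. The methods of the study speak of biological triplicates, while the labels give 2 libraries a group and do not say which cultures they came from, or whether IR cells are 1 clone or a pool. The p-values measure the spread between libraries of a group, pooled over all 8 groups of both lines.

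Sorafenib is a kinase inhibitor that blocks RAF kinases and the receptors of VEGF and PDGF, and it is given to patients with advanced hepatocellular carcinoma. Hep3B is an established liver cancer line that, like the hepatocyte, makes and secretes plasma proteins such as albumin, apolipoproteins, clotting factors and complement. Cells under a kinase inhibitor can change growth control, stress responses and their surface, and the lists of genes used here follow these themes.

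The 4 libraries of this comparison held 70356198 to 74739455 reads, and replicates correlated across genes with Pearson's r of 0.994 in parental and 0.991 in IR cells. The summed level of 13 hepatoma markers was 21369 and 26080.2 CPM in parental and 5784 and 12942 CPM in IR libraries. The 4 endothelial markers summed to at most 1.06 CPM in any of these 4 libraries. Those of fibroblasts (8 markers) summed to 63.1 and 70.3 CPM in parental and 103 and 72.5 CPM in IR libraries. The 5 leukocyte markers rose from 7.75 and 10.9 to 37.4 and 51.8 CPM, nearly all of it CD68, which lies in lysosomes of many cell types, while PTPRC, which defines leukocytes, stayed at 0.0535 and 0.0995 CPM in IR cells. Across genes, the difference between the 2 IR libraries went with GC content (Spearman's rho 0.28), while the log2 fold change from parental cells hardly did (0.01).

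As compared to parental cells, 4063 genes (27.1% of those tested) changed in Hep3B IR cells, of which 2353 (15.7%) were higher and 1710 (11.4%) lower. A gene is called changed here at an adjusted p under 0.05 in limma's fit over all 16 libraries if its log2 fold change is also 0.58 or more in size, where fold changes are on the scale of log2(CPM + 1) and understate the change of genes at low levels. With quantile normalization the split turned to 1925 higher and 2108 lower. With 2 libraries in each group an exact permutation test of a single gene cannot give a two-sided p below 0.333, so calls rest on limma's fit, which takes the spread of each gene from all 8 groups. Replicates differed more in Huh7 DMSO and Huh7 IR cells (SD of the log2 difference 0.57 in each) than in the Hep3B groups (0.24 to 0.31). With the Hep3B libraries alone 4550 genes were called, 2664 higher and 1886 lower. Against the DMSO libraries, 2599 genes (17.3%) were higher and 2220 (14.8%) lower in IR cells.

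The 15 largest rises included genes of drug and steroid metabolism, growth arrest, cell adhesion and secretion. CYP2B6, a cytochrome P450 that oxidizes many drugs, was at 0.7 and 1.51 CPM in the parental and 271 and 407 CPM in the IR libraries, a log2 fold change of 7.33 ± 0.39 (± SE, n = 2 and 2). SULT1E1, the sulfotransferase that inactivates estrogens, went from 2.11 and 2.5 to 319.7 and 299.8 CPM (6.56 ± 0.42). The IR libraries lay far above both the parental and the DMSO libraries for each of these enzymes, and above CR cells at 3.56 and 1.83 CPM for CYP2B6 and 68.3 and 32.4 CPM for SULT1E1. The aldo-keto reductases AKR1C1 and AKR1C2, which reduce steroids and reactive carbonyls, rose by 6.07 ± 0.47 and 5.47 ± 0.51 from about 1 CPM, though their sequences are so alike that reads may be split between them.

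CDKN1A encodes p21, an inhibitor of cyclin-dependent kinases. It stood at 0.848 and 1.36 CPM in parental, 2.56 and 4.45 CPM in DMSO and 299 and 198 CPM in IR libraries (6.87 ± 0.68). The integrin subunit ITGA3, a laminin receptor, rose from 1.29 and 0.76 to 189.9 and 111 CPM (6.18 ± 0.32) and was higher still in CR cells, at 486 and 521 CPM. AXL, a receptor tyrosine kinase, rose from 0.821 and 0.76 to 118 and 45.1 CPM (5.37 ± 0.37), with the first IR library well above the second. The tetraspanin-like membrane protein TM4SF1 rose from 42.3 and 18.7 to 1298 and 1092 CPM, and IGFBP7, a secreted binder of insulin-like growth factors, from 43.7 and 20.2 to 1020.0 and 798 CPM, so both became abundant transcripts. The other rises of this group were LONRF2 (6.63 ± 0.28), the cornified envelope gene SCEL (5.62 ± 0.20), SLITRK6 (5.48 ± 0.21), the disulfide isomerase AGR2 (5.20 ± 0.37), the fatty acid desaturase SCD5 (5.13 ± 0.30) and the microtubule protein MAP1B (5.12 ± 0.36).

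**Figure D1:**
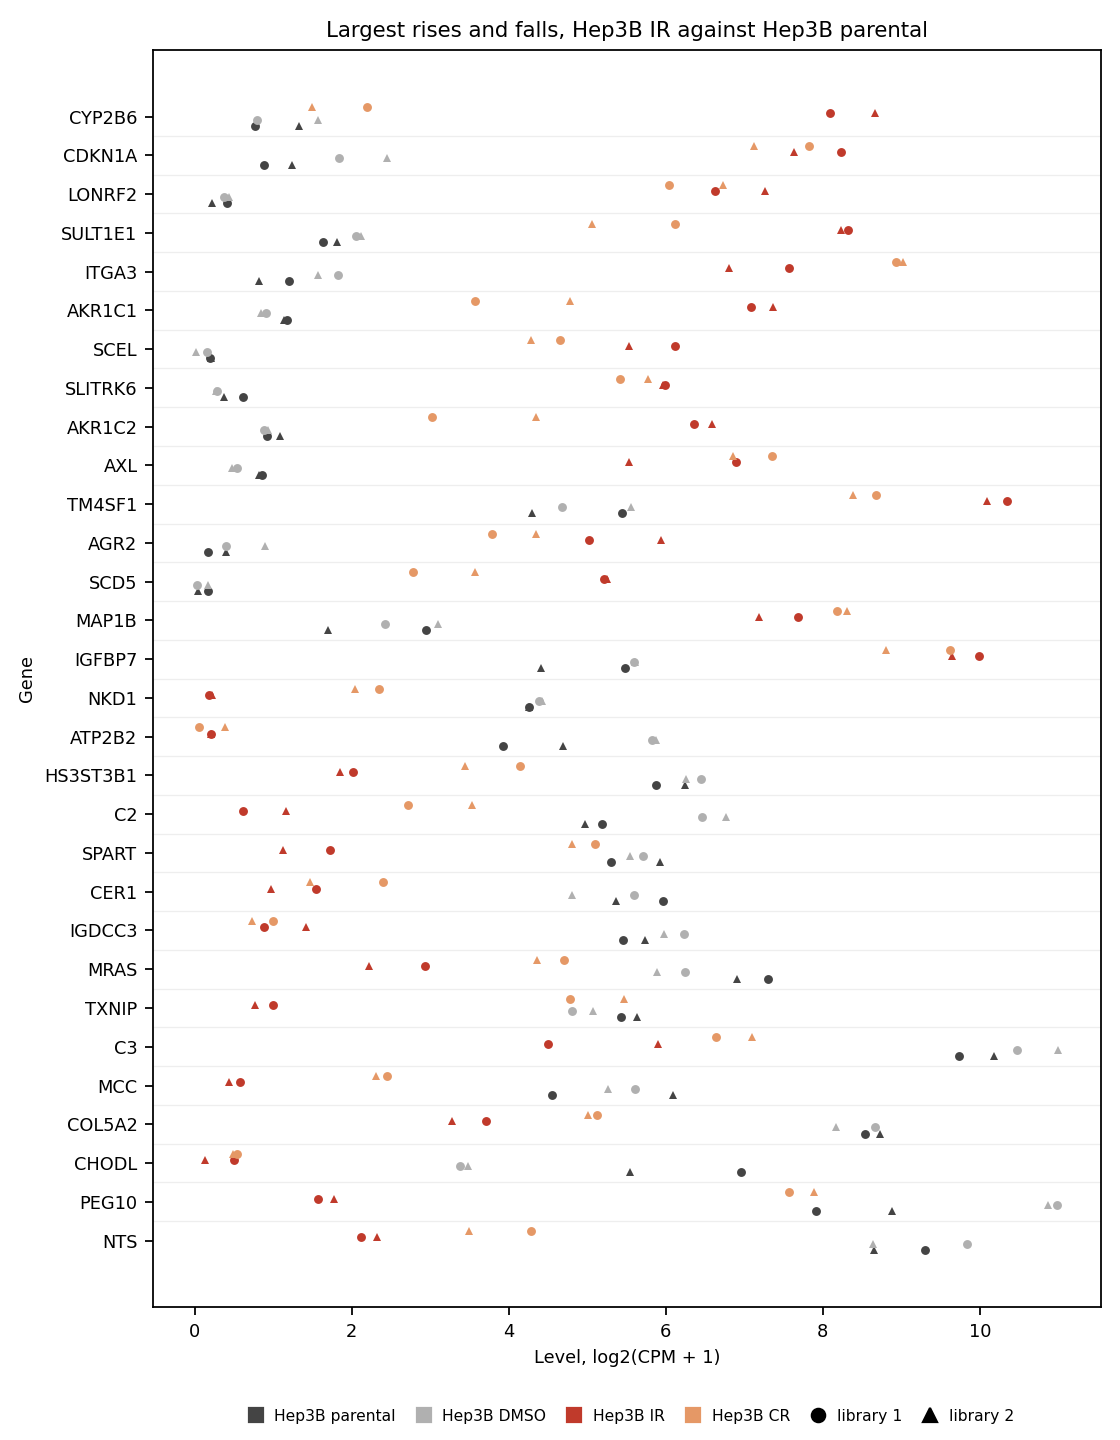
Levels of the 15 genes with the largest rise and the 15 with the largest fall in Hep3B IR cells, as log2(CPM + 1) on the x axis, with 1 point for each of the 8 Hep3B libraries and colors for the groups. The 2 IR libraries lie beyond both parental libraries for all 30 genes, by the rule that chose them, while CR and DMSO libraries lie on either side.

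Among the largest falls, NTS, which encodes the peptide neurotensin, went from 628 and 401 CPM in parental to 3.33 and 4.02 CPM in IR libraries (-6.75 ± 0.39). PEG10, a gene derived from a retrotransposon and active in liver tumors, fell from 241 and 471 to 1.97 and 2.43 CPM (-6.73 ± 0.35). The groups were ordered differently for these genes: PEG10 was at 2017 and 1872 CPM in DMSO and 189 and 236 CPM in CR cells, so its low level was that of IR cells, while NTS was low in CR cells too, at 18.5 and 10.2 CPM. TXNIP, which binds thioredoxin and curbs glucose uptake, fell from 42 and 48.7 to 0.99 and 0.711 CPM (-4.65 ± 0.40) and stood at 26.5 and 43.1 CPM in CR cells.

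The fibrillar collagen gene COL5A2 fell from 371 and 424 to 12 and 8.7 CPM (-5.14 ± 0.25). Complement C3, the protein on which all complement pathways meet, fell from 853 and 1162 to 21.7 and 58.8 CPM (-4.76 ± 0.60), and C2, a protease of the classical pathway, by -4.19 ± 0.36 from 35.5 and 30.3 CPM. CHODL was at 123 and 45.9 CPM in parental, 9.38 and 10.2 CPM in DMSO and 0.415 and 0.0995 CPM in IR cells, and the parental libraries thus stood apart from DMSO cells as well. The remaining falls were MCC (-4.81 ± 0.39), the RAS-related GTPase MRAS (-4.53 ± 0.52), IGDCC3 (-4.44 ± 0.21), CER1, which encodes a secreted inhibitor of BMP and Nodal ligands (-4.41 ± 0.34), SPART (-4.19 ± 0.24), the heparan sulfate enzyme HS3ST3B1 (-4.13 ± 0.39), the calcium pump ATP2B2 (-4.10 ± 0.34) and NKD1, a Wnt feedback gene (-4.05 ± 0.16). All 30 genes named as the largest rises and falls were also called under each alternative setting that kept all libraries. They kept their direction with any 1 library left out, and all 30 were called in the same direction against the DMSO libraries. The genes were chosen for large changes in these same values. The settings reuse the same libraries and the DMSO comparison shares the IR libraries, so these results are not independent support.

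A further 40 genes passed from clear expression to at most 3 reads in either library of 1 group, or the reverse. Of the 17 that were switched on, RETREG1, a receptor for autophagy of the endoplasmic reticulum, had 0 and 2 reads in parental and 1157 and 612 in IR libraries, and COL4A3, a basement membrane collagen, had 3 and 2 against 1101 and 453. MLPH, a carrier protein of pigment granules, went from 1 and 3 to 372 and 383 reads, and NEURL1 and PHLDA3 from at most 3 to between 141 and 271 reads. Of the 23 that were switched off, DEFB1, an antimicrobial defensin, had 616 and 1180 reads in parental and 1 and 0 in IR libraries. The GABA transporter gene SLC6A11 went from 762 and 986 to 1 and 0 reads, and the ubiquitin ligase gene TRIM59 from 739 and 600 to 1 and 0. SALL1, a zinc finger factor of embryonic development, had 722 and 538 reads in parental and none in IR libraries, so it was at least 209-fold lower when each IR library is set to a floor of 3 reads, which covers counting error only. TMEM30B, part of lipid flippases, went from 718 and 386 to 0 and 2 reads.

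Many genes for secreted products of the hepatocyte fell, and those for plasma proteins differed between the 2 IR libraries. Albumin, the main plasma protein, was at 12152 and 13348 CPM in parental and 1682 and 5526 CPM in IR libraries, with 18745 and 19701 CPM in DMSO and 655 and 753 CPM in CR cells (-2.06 ± 0.61). AFP, the fetal counterpart of albumin and a marker of HCC, was at 268 and 116 CPM in parental and 26.4 and 103 CPM in IR libraries (-1.74 ± 0.54), against 716 and 1017 CPM in DMSO cells. Both genes were lower in every IR than in every parental library, yet the IR libraries differed from each other by more than 3-fold. ALB was not called without the first IR library (-1.20), without the first parental library (-2.13) or without the second parental library (-1.99). AFP was not called without the first IR library (-0.78) or without the first parental library (-1.14).

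Of 22 plasma proteins tested, 10 fell and 2 rose (45.5% and 9.09%, against 11.4% and 15.7% of all genes), with a median log2 fold change of -0.98 against 0.06 over all genes tested. AHSG, which encodes fetuin-A, fell from 387 and 773 to 11.7 and 93 CPM, hemopexin (HPX), which binds heme, from 18.4 and 19.3 to 1.14 and 2.62 CPM, and the acute phase gene ORM2 from 45.9 and 70.6 to 4.4 and 8.88 CPM, though ORM2 shares much sequence with ORM1. The 2 that rose were protease inhibitors, SERPINA3 from 1.94 and 2.53 to 18.4 and 22.8 CPM (2.74 ± 0.47) and SERPINA1, which encodes alpha-1-antitrypsin, from 392 and 547 to 1161 and 2052 CPM, though SERPINA1 stood at 1514 and 2529.8 CPM in DMSO cells. All 22 genes were lower in the first than in the second IR library, by a median of 0.85 on the log2 scale, while the median difference between these libraries was 0.02 over all genes. The count of falls was 4 without the first IR library, 11 without the second, 8 without the first and 6 without the second parental library, and 16 against DMSO cells. AHSG was not called without the first IR library (-2.54) or without the second parental library (-3.49). SERPINA1 was not called when any 1 of the 4 libraries was left out (1.32 to 2.15).

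**Figure D2:**
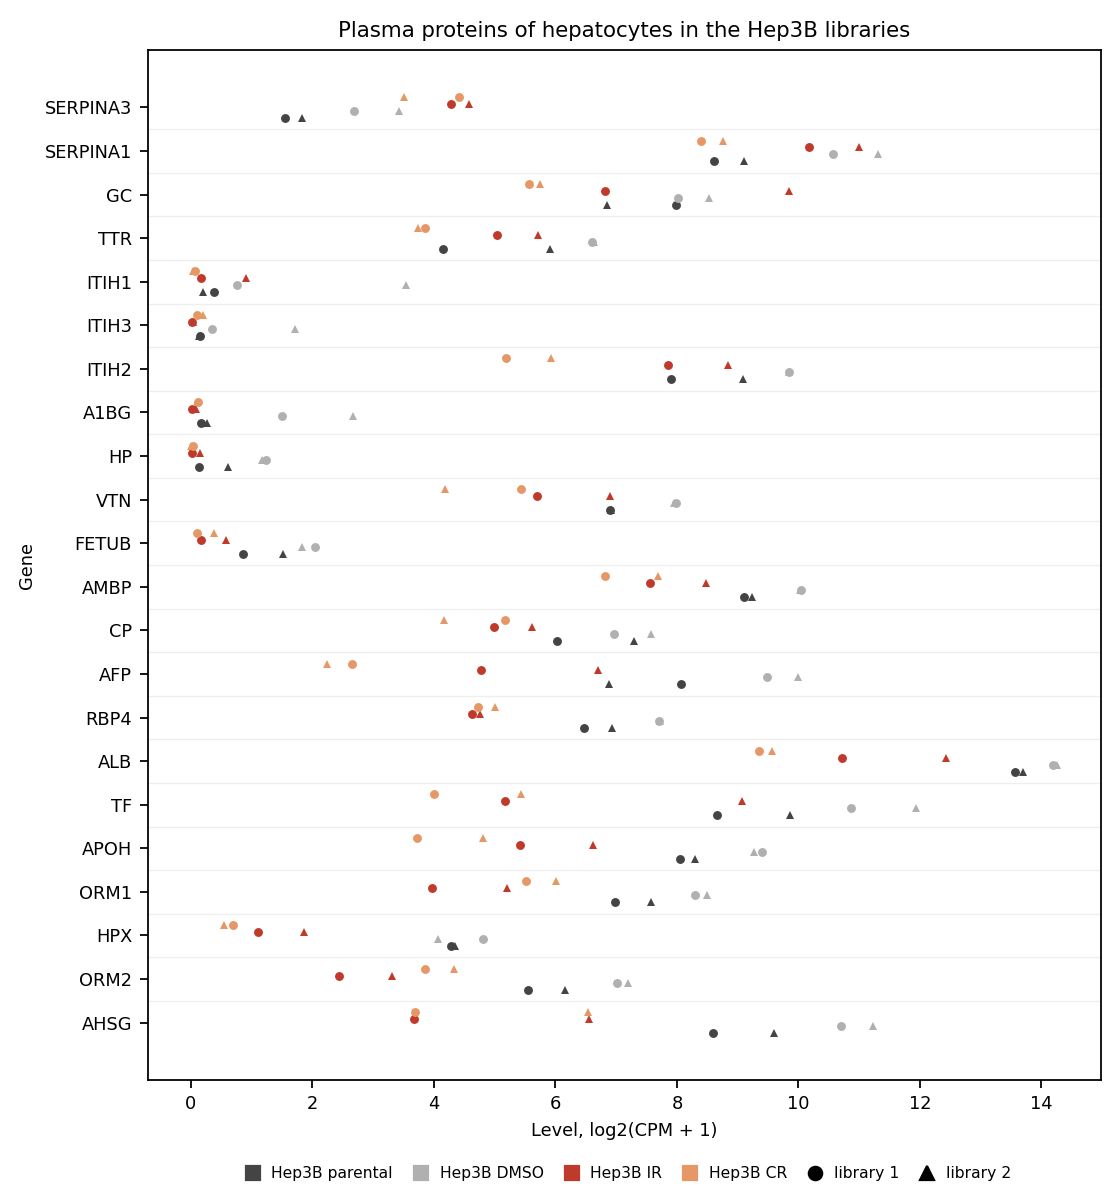
Levels of 22 plasma protein genes in the 8 Hep3B libraries, as log2(CPM + 1), with colors for the groups and marks for library 1 or 2. The first IR library lies to the left of the second for all 22 genes, and DMSO libraries lie mostly to the right of the parental ones.

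Apolipoproteins and the proteins that load lipids onto them gave 8 falls and 0 rises among 16 genes tested (median -0.85). APOA2 fell from 2449 and 2966 to 204 and 627 CPM (-2.91 ± 0.43) and MTTP, which transfers lipid to nascent lipoproteins, from 76.5 and 69.2 to 10.7 and 14.1 CPM (-2.47 ± 0.25). APOB, the scaffold of very low density lipoproteins, was at 3597 and 5914 CPM in parental and 401 and 1867 CPM in IR libraries and did not pass the test (adjusted p = 0.0524). Among 19 coagulation factors 8 fell and 0 rose (42.1% and 0%). The falls were led by prothrombin (F2), from 44.6 and 52.5 to 2.89 and 4.31 CPM (-3.44 ± 0.36), and by the fibrinogen chain FGG, from 104 and 134 to 20.4 and 16.3 CPM (-2.63 ± 0.59). Of 21 complement genes 9 fell and 1 rose (42.9% and 4.76%). Besides C3 and C2, the complement inhibitor C4BPB fell from 5.51 and 8.22 to 0.254 and 0.156 CPM, and the one that rose was C6, a part of the membrane attack complex, at 6.21 and 8.38 CPM in parental and 19.9 and 114 CPM in IR libraries. The falls numbered 3 apolipoprotein and 3 coagulation genes without the first IR library, and 4 of each without the second parental library. Without the first parental library 5 apolipoprotein genes fell. Against DMSO cells 11, 13 and 14 genes of these 3 lists fell, where 14.8% of all genes were lower. In bulk RNA, fewer cells that make these proteins and less RNA in each cell cannot be told apart. APOA2, F2 and C4BPB lie in stretches of chromosomes 1 and 11, described further on, where most genes were lower. Outside such stretches 7 of 15 apolipoprotein, 7 of 15 coagulation and 7 of 16 complement genes fell. C6 was not called without the second IR library (1.34), without the first parental library (2.39) or without the second parental library (2.77). APOB was called without the second IR library (-3.52).

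The transcription factors that drive hepatocyte genes moved less as a list, with a median of -0.17. There were 5 falls and 2 rises among 20 (25.0% and 10.0%, against 11.4% and 15.7% of all genes). HNF4A, the central factor of the hepatocyte program, was at 191 and 198 CPM in parental and 219.8 and 154 CPM in IR libraries, a log2 difference of -0.08 ± 0.34 that missed the threshold. CEBPA fell from 143 and 201 to 58.7 and 65.6 CPM (-1.43 ± 0.32), and its relative CEBPB, induced in stress and inflammation, rose from 5.28 and 6.16 to 28 and 19.9 CPM (1.88 ± 0.25). Between 1 and 3 of these 20 genes fell when any 1 of the 4 libraries was left out. CEBPA was not called without the second parental library (-1.19). GLDC, which cleaves glycine, fell from 177 and 166 to 32.6 and 33.5 CPM (-2.34 ± 0.40). HPD of tyrosine breakdown fell from 11.6 and 12.1 to 2.94 and 4.11 CPM (-1.52 ± 0.22). Both belong to the 18 genes of the urea cycle and amino acid breakdown, of which 5 fell and 3 rose (27.8% and 16.7%). Between 2 and 6 of these genes fell with any 1 library left out.

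All 30 of 30 mitosis genes fell in IR cells, against 11.4% of all genes, with a median log2 fold change of -1.25. CENPF, a kinetochore protein, fell from 1269.9 and 1136 to 317 and 208 CPM (-2.22 ± 0.35), and NUF2, which ties kinetochores to microtubules, from 62.2 and 50.5 to 18.3 and 10.4 CPM (-1.94 ± 0.27). PLK1, the kinase that drives entry into and passage through mitosis, fell from 140.2 and 142 to 65.6 and 36.1 CPM (-1.52 ± 0.28), and MAD2L1 of the spindle checkpoint from 124 and 118 to 44.1 and 38.9 CPM (-1.52 ± 0.18). MKI67, the proliferation marker read by Ki-67 staining, was at 392 and 416 CPM in parental and 191 and 145 CPM in IR libraries. Both IR libraries lay below both parental libraries for all 30 genes, as they did for 31.7% of all genes tested, and all 30 were higher in the first than in the second IR library, by a median of 0.58. The number called was 14 without the second IR library, 29 without the first, 17 without the second parental library and 20 without the first, and 19 against DMSO cells. MKI67 was not called when any 1 of the 4 libraries was left out (-1.47 to -1.08). Directly against CR cells, 10 of the 30 were higher in IR cells and 0 were lower, where 5.33% of all genes were higher and 6.41% lower.

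Promoters of genes of mitosis are known for pairs of a CCAAT box and the CHR element TTTGAA, through which they are held down outside the late cell cycle. RefSeq promoters (250 bases before to 50 after the start, GRCh38.p14) were matched for 24 of the 30 genes, and either strand was searched. TTTGAA was in 16 of 24 (66.7%) against 10.4% of the promoters of all genes tested, CCAAT in 18 of 24 (75.0%) against 37.0%, and both in 13 of 24 (54.2%) against 4.39%. A match is a description of letters and not of binding. The promoters of CENPF, MAD2L1 and PLK1, shown because they hold both motifs, lie at chr1:214602945-214603244 (plus strand, CENPF), chr4:120066799-120067098 (minus strand, MAD2L1) and chr16:23678639-23678938 (plus strand, PLK1), with the letters of either motif on either strand in capitals.
CENPF: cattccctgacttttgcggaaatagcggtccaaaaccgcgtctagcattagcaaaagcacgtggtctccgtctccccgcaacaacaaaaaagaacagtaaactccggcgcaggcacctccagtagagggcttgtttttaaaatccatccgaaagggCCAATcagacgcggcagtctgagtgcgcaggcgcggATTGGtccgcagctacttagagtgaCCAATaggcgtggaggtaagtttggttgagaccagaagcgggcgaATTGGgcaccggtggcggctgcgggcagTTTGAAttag
MAD2L1: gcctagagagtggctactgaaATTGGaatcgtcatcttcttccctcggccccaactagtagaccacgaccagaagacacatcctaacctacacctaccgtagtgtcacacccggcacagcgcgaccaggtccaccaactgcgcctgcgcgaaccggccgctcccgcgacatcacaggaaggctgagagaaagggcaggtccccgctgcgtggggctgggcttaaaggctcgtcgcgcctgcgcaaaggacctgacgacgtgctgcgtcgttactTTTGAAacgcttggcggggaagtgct
PLK1: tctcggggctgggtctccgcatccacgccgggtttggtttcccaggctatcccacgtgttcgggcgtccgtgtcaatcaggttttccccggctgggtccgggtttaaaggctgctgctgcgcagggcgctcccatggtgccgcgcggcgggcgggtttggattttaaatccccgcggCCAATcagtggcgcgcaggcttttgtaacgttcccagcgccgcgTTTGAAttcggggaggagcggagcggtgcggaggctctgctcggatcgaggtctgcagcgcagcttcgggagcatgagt

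DNA replication genes fell less uniformly, with a median of -0.48. There were 7 falls and 0 rises among 34 (20.6% and 0%, against 11.4% and 15.7% of all genes). RFC3, a subunit of the clamp loader, fell from 67 and 73.1 to 19.6 and 18.4 CPM (-1.83 ± 0.24), and FEN1, the nuclease that trims Okazaki fragments, from 182 and 232 to 69.4 and 99 CPM (-1.30 ± 0.21). Of the 7, 4 lay in stretches of chromosomes with lower expression described further on, where the list has 5 members, against 3 of 29 members elsewhere. With DESeq2 on the recovered reads 12 fell. Among 15 CDK inhibitors and D cyclins 5 rose and 2 fell (33.3% and 13.3%). Besides CDKN1A, CDKN2B, which encodes the CDK4 and CDK6 inhibitor p15, rose from 9.48 and 15.1 to 176 and 131 CPM (3.56 ± 0.27). CDK6, which p15 blocks, fell from 596 and 496 to 235 and 276 CPM (-1.09 ± 0.20), and its partner cyclin D1 (CCND1) from 152 and 169 to 73.4 and 64.1 CPM (-1.22 ± 0.17). The rises numbered 3 without the first IR library.

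Genes of the integrated stress and unfolded protein response rose, with 21 rises and 3 falls among 34 (median 1.25). These were 61.8% and 8.82% of members, against 15.7% and 11.4% of all genes. In this response, kinases that sense amino acid shortage or misfolded protein slow translation and raise the factor ATF4, which induces genes of amino acid supply and of cell death. ATF4 itself was at 280.3 and 333 CPM in parental, 395 and 383 CPM in DMSO and 885 and 731 CPM in IR libraries (1.39 ± 0.22). TRIB3, a pseudokinase that damps the response, rose from 51.4 and 78.2 to 548 and 513 CPM (3.04 ± 0.44), and DDIT3, which encodes the death-linked factor CHOP, from 18.3 and 15.2 to 67.8 and 60.1 CPM (1.87 ± 0.40). The IR libraries were above all parental and DMSO libraries for these 3 genes. Among members that serve amino acid supply, asparagine synthetase (ASNS) rose from 156 and 173 to 480.3 and 508 CPM, PHGDH, which starts serine synthesis, from 38.7 and 51.9 to 209 and 201 CPM, and the cystine carrier SLC7A11 from 68.2 and 86.8 to 316 and 324 CPM. The 3 that fell were chaperones of the endoplasmic reticulum, PDIA4 from 350.3 and 400.1 to 171 and 212 CPM (-0.97 ± 0.15), HSP90B1 from 1130.0 and 1215 to 726 and 835 CPM (-0.59 ± 0.17) and MANF from 56.8 and 56.1 to 32.6 and 37.8 CPM (-0.67 ± 0.21). The main chaperone of this compartment, HSPA5, was at 609 and 743 CPM in parental and 386 and 519 CPM in IR libraries, a difference of -0.59 ± 0.26 that missed the threshold (adjusted p = 0.105). There were 17 rises against DMSO cells, and 14 without the first IR library, 17 without the second, 16 without the first and 17 without the second parental library. HSP90B1 was not called without the first IR library (-0.49), without the first parental library (-0.64) or without the second parental library (-0.54). MANF was not called when any 1 of the 4 libraries was left out (-0.78 to -0.57).

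The element TGATGNAA, bound by ATF4 together with C/EBP factors, was in 4 of 31 promoters matched for this list (12.9%), against 1.86% of the promoters of genes tested. All 4 belong to genes that rose, of which 18 had a promoter, and 0 of 13 other members held it. They are shown as the members of the list that hold the element, and lie at chr7:97872359-97872658 (minus strand, ASNS), chr1:212565157-212565456 (plus strand, ATF3), chr15:40953221-40953520 (plus strand, CHAC1) and chr16:56931892-56932191 (plus strand, HERPUD1), with the element in capitals, on the strand printed or its complement. It began 68, 191, 209 and 176 bases before the start. With so few matches, rising and other members cannot be told apart by the element, and a match describes letters and not binding.
ASNS: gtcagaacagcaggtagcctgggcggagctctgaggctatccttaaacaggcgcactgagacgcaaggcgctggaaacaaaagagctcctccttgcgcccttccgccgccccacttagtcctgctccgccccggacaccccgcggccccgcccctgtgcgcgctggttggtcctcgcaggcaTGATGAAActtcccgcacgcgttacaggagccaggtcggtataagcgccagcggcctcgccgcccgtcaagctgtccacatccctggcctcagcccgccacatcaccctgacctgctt
ATF3: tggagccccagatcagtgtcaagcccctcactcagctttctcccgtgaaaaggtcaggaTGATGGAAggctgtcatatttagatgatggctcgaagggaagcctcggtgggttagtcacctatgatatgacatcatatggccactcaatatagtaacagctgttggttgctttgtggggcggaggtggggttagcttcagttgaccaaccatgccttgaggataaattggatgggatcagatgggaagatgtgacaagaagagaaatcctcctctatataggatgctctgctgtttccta
CHAC1: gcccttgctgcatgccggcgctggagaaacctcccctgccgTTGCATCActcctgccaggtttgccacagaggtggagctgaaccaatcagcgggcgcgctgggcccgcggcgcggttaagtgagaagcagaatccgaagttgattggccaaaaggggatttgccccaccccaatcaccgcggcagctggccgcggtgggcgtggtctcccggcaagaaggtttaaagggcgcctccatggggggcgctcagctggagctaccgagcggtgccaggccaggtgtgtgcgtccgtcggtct
HERPUD1: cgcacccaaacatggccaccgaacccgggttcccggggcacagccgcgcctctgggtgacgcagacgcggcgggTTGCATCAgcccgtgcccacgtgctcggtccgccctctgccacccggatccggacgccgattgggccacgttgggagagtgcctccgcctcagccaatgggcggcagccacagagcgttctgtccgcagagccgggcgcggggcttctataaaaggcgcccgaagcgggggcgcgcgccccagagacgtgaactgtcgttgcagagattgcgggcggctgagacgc

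ATF3, a stress-induced partner of ATF4, rose from 13.3 and 14.4 to 59.8 and 38.8 CPM (1.73 ± 0.54), and CHAC1, which degrades glutathione, from 14.4 and 14.9 to 56.8 and 32.4 CPM (1.49 ± 0.36). HERPUD1, which helps remove misfolded proteins, rose from 51.4 and 69.7 to 140.3 and 149.8 CPM (1.26 ± 0.22). CHAC1 was not called without the first IR library (1.10). ATF3 was not called when any 1 of the 4 libraries was left out (1.43 to 2.04).

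Sorafenib blocks the RAF kinases that feed into ERK, and 29 genes that ERK signaling induces were tested. Of these 16 rose and 3 fell (55.2% and 10.3% of members, against 15.7% and 11.4% of all genes, median 0.79). ETV5, an ERK-induced transcription factor, rose from 13.9 and 19.7 to 80.3 and 68.3 CPM (2.10 ± 0.26), and FOSL2 of the AP-1 family from 4.51 and 4.04 to 18.8 and 14.2 CPM (1.72 ± 0.37). The phosphatases that switch ERK off rose as well, DUSP4 from 14.7 and 16.9 to 67 and 68.9 CPM (2.04 ± 0.19) and DUSP5 from 7.69 and 9.85 to 30.6 and 43 CPM (1.94 ± 0.32), while DUSP6 was at 55 and 61.9 CPM in parental and 43.5 and 82.2 CPM in IR libraries and DUSP7 fell from 5.79 and 5.25 to 3.02 and 2.32 CPM. DUSP7 lies in a stretch of chromosome 3 where most genes were lower. The other falls were cyclin D1 and ETV1, the latter from 110.3 and 100.3 to 54 and 59.9 CPM. Against DMSO cells 11 rose and 2 fell, and 10 rose without the first IR library and 8 when any of the other 3 was left out. DUSP7 was not called without the second IR library (-0.69), without the first parental library (-0.77) or without the second parental library (-0.89). Of the 8 tested kinases that Sorafenib inhibits, the PDGF receptor PDGFRB alone was called, from 3.9 and 5.67 to 1.36 and 1.12 CPM (-1.35 ± 0.25).

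Receptor tyrosine kinases and their ligands gave 10 rises and 3 falls among 35 (28.6% and 8.57%, against 15.7% and 11.4% of all genes). FGF2 rose from 8.98 and 5.56 to 48.8 and 42.1 CPM (2.52 ± 0.20) and IRS2, the adaptor of the insulin receptor, from 35.3 and 33.1 to 194 and 173 CPM (2.39 ± 0.31). IGF2, the fetal growth factor that HCC often makes, fell from 1333 and 1777 to 146 and 292 CPM and was at 3689 and 4450.3 CPM in DMSO cells (-2.89 ± 0.47). It lies in a stretch of chromosome 11 where most genes were lower. Among 27 angiogenic factors and receptors 9 rose and 4 fell. VEGFA, the main growth factor of vessels, rose from 71.3 and 57.4 to 368 and 284 CPM (2.32 ± 0.33). Of the angiogenic genes 4 rose without the first IR library, and 6 without either parental library.

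The HIF pathway was the subject of the study, and its genes were part of the lists for that reason. HIF-1 and HIF-2 are the factors by which cells respond to low oxygen, and their alpha subunits are hydroxylated by EGLN enzymes and then degraded. HIF1A was at 308 and 339 CPM in parental and 650.4 and 538 CPM in IR libraries (0.87 ± 0.22), and EPAS1, which encodes HIF-2 alpha, at 132 and 196 and 208 and 202 CPM (0.35 ± 0.22, adjusted p = 0.267). EGLN1 fell from 325 and 276 to 78.6 and 104 CPM (-1.72 ± 0.17), and lies in a stretch of chromosome 1 where most genes were lower. HIF1A was not called without the first IR library (0.73) or without the first parental library (0.80). Among regulators and deubiquitinases, UCHL1 rose from 176 and 195 to 455 and 466 CPM (1.31 ± 0.13) and UCHL5 fell from 120.4 and 113 to 48.9 and 49.6 CPM (-1.23 ± 0.14). USP29, of which 1 IR library held 0.0268 CPM and the other 0.0142 CPM, was too low to be tested.

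Of 28 genes that HIF induces 10 rose and 2 fell, with a median of 0.95. These were 35.7% and 7.14% of members, against 15.7% and 11.4% of all genes. VEGFA rose by 2.32 ± 0.33 and LOXL2, which crosslinks collagen, from 2.36 and 1.28 to 18.3 and 15 CPM (2.66 ± 0.58). The falls were EGLN1 and the transferrin receptor TFRC, from 951 and 1168 to 607 and 718 CPM. There were 6 rises without either IR library or without the first parental library, 7 without the second, and 8 against DMSO cells. TFRC was not called without the first IR library (-0.55), without the second IR library (-0.80) or without the second parental library (-0.53). Glycolysis and lactate transport showed no common direction, with 4 rises and 2 falls among 26 (15.4% and 7.69%) and a median of 0.00. The glucose carrier SLC2A1 rose from 14 and 19.3 to 150.0 and 88.1 CPM (2.73 ± 0.31), the platelet phosphofructokinase PFKP from 0.673 and 0.408 to 41.2 and 33.8 CPM (4.64 ± 0.25) and PFKFB3, which activates phosphofructokinase, from 54.8 and 73.2 to 216 and 168 CPM (1.57 ± 0.33). LDHA, which makes lactate, fell from 501 and 629 to 257 and 317 CPM (-0.97 ± 0.22), and lies in a stretch of chromosome 11 where most genes were lower. LDHA was not called without the first IR library (-0.82) or without the second parental library (-0.81). HK2 was at 217 and 321 CPM in parental and 182 and 216 CPM in IR libraries (adjusted p = 0.177), the lactate exporter SLC16A3 at 19.9 and 21 and 20.2 and 21 CPM, and PDK1, which shuts pyruvate out of mitochondria, at 15.9 and 17.4 and 12.8 and 20.6 CPM. SLC16A8 held at most 1 read in any of these 4 libraries.

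Caveolae, annexins and S100 proteins, which shape and patch the plasma membrane, gave 18 rises and 1 fall among 29 (median 0.92). These were 62.1% and 3.45% of members, against 15.7% and 11.4% of all genes. ANXA1 rose from 1.14 and 2.5 to 60.1 and 59.2 CPM (4.47 ± 0.22), S100P from 2.22 and 3.91 to 30.3 and 52.7 CPM (3.37 ± 0.49) and CAV1, the coat protein of caveolae, from 14.4 and 14.8 to 85 and 56.8 CPM (2.18 ± 0.33). The one that fell, CAVIN2, belongs to the same coat and went from 73.3 and 65.6 to 11.7 and 12 CPM (-2.45 ± 0.36). ANXA13 was at 5.75 and 1.48 CPM in parental, 47.9 and 87.4 CPM in IR and 1.84 and 2.42 CPM in CR cells. Against DMSO cells 18 rose and 2 fell, and 15 to 17 rose with any 1 library left out.

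Among 21 integrins 8 rose and 2 fell (38.1% and 9.52%, against 15.7% and 11.4% of all genes). Besides ITGA3 the beta chains ITGB4 and ITGB6, which are found in epithelial cells, rose. They went from 19.3 and 10.3 to 119 and 63.6 CPM and from 2.17 and 0.76 to 24.5 and 11.8 CPM. Collagens and laminins gave 10 rises and 4 falls among 28 (35.7% and 14.3%). COL12A1 rose from 2.77 and 5.99 to 191 and 92.8 CPM (4.71 ± 0.32) and COL1A1, the main chain of fibrillar collagen, from 0.162 and 0.0422 to 62.9 and 11.5 CPM (4.69 ± 0.55). COL1A1 is also a fibroblast marker, and of the other fibroblast markers LUM was at 32.9 and 21.7 CPM in parental and 22.1 and 20.3 CPM in IR libraries and PDGFRB fell. Plasminogen activators, metalloproteases and their inhibitors gave 12 rises and 2 falls among 25 (48.0% and 8.0%). Urokinase (PLAU), which activates plasminogen, rose from 0.458 and 0.619 to 28.6 and 37.7 CPM (4.46 ± 0.37). TIMP4 rose from 1.09 and 0.9 to 21.6 and 15 CPM (3.25 ± 0.33). ADAM19 fell from 25.9 and 19 to 1.18 and 0.355 CPM (-3.76 ± 0.31).

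Targets of YAP and TEAD, which answer to cell shape and contact, gave 12 rises and 4 falls among 30 (40.0% and 13.3%). CCN2, their best known target, rose from 118 and 148 to 872 and 500.2 CPM (2.31 ± 0.28), MYOF from 32.9 and 18.4 to 282 and 169 CPM (3.10 ± 0.33) and WWTR1, which encodes the coactivator TAZ, from 52.9 and 41.6 to 222 and 209 CPM (2.18 ± 0.27). Of 23 mesenchymal genes 9 rose and 1 fell (39.1% and 4.35%, against 15.7% and 11.4% of all genes). The matrix protein SPARC rose from 0.121 and 0.169 to 18.5 and 10.1 CPM (3.68 ± 0.30) and TPM1, a tropomyosin, from 454 and 316 to 1716 and 1091 CPM (1.85 ± 0.29). Of these, 3 rose without the first IR library, without the second parental library 4, and without either of the others 8. Epithelial junction genes gave 3 rises and 1 fall among 21 (14.3% and 4.76%), with rises close to the share over all genes. E-cadherin (CDH1) rose from 84.1 and 80.2 to 311 and 327 CPM (1.95 ± 0.49). CDH1 was not called without the second parental library (1.91). Between 1 and 4 junction genes rose with any 1 library left out. BMP6, which also controls iron, rose from 0.296 and 0.338 to 22.2 and 18.7 CPM (4.02 ± 0.28). It led the list of TGF-beta ligands, receptors and SMADs, with 6 rises and 1 fall among 27 (22.2% and 3.7%). Only 4 of them rose without the first IR or without either parental library.

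Enzymes of drug metabolism gave 5 rises and 4 falls among 25, close to the 15.7% and 11.4% of all genes. Against the rise of CYP2B6 and SULT1E1, CYP1A1, which oxidizes aromatic compounds, fell from 61.9 and 35.5 to 3.61 and 1.81 CPM (-3.74 ± 0.71) and SULT2A1, which sulfates bile acids and steroids, from 2.95 and 10.6 to 0.134 and 0.199 CPM (-2.54 ± 0.46). With any 1 library left out 3 to 5 of these enzymes rose and 2 to 4 fell. Of 16 drug and bile acid transporters 3 rose and 2 fell (18.8% and 12.5%), close to the 15.7% and 11.4% of all genes. The export pumps ABCC3 and ABCC4 rose from 40.5 and 27.2 to 135 and 111 CPM (1.85 ± 0.37) and from 42.8 and 67.2 to 171 and 164 CPM (1.62 ± 0.20). ABCB1, which encodes P-glycoprotein, was at 83.7 and 83.2 CPM in parental and 167 and 177 CPM in IR libraries, a difference of 1.03 ± 0.40 that missed the threshold (adjusted p = 0.0664), and was called against DMSO cells at 42.5 and 48 CPM. NRF2 targets and antioxidant enzymes gave 6 rises and 3 falls among 34 (17.6% and 8.82%), close to the share over all genes, so the rise of the AKR1C genes and SLC7A11 was not shared by the list. Between 1 and 6 of its members fell with any 1 library left out.

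Among 23 ferroptosis regulators 5 rose and 4 fell, where 15.7% of all genes rose and 11.4% fell. SAT1, which breaks down polyamines, rose from 45.5 and 45.6 to 204 and 309 CPM (2.44 ± 0.37), and ACSL4, which supplies the lipids that are peroxidized in this form of death, fell from 485 and 868 to 138 and 231 CPM (-1.86 ± 0.31). Of the 23, 3 rose and 1 fell without the first IR library, and without the second parental library 1 fell. Iron handling genes gave 2 rises and 4 falls among 18, with HJV, a coreceptor for the induction of hepcidin, at 170 and 323 reads in parental and 2 and 2 in IR libraries. Of the 18, 1 fell without the first IR or the second parental library.

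Lipid synthesis depended on which control was used. Over all genes 15.7% rose and 11.4% fell against parental cells, and 17.3% and 14.8% against DMSO cells. Cholesterol synthesis genes gave 0 rises and 1 fall among 22 as compared to parental cells, and 0 rises and 17 falls as compared to DMSO cells (medians 0.02 and -1.25). Fatty acid synthesis and storage showed the same, with 2 rises and 2 falls among 22 against parental and 1 rise and 12 falls against DMSO cells. GPAM, the first enzyme of triglyceride synthesis, was at 1.4 and 4.95 CPM in parental, 70.3 and 48.2 CPM in DMSO and 0.0268 and 0.0142 CPM in IR libraries. Respiratory chain subunits gave 0 rises and 5 falls among 31, of which 3 lay in the lower stretches of chromosomes. GPAM was not called without the first IR library (-1.90), without the second IR library (-1.88) or without the second parental library (-1.23). With any 1 library left out, 1 gene of fatty acid synthesis rose and 0 or 1 fell.

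**Figure D3:**
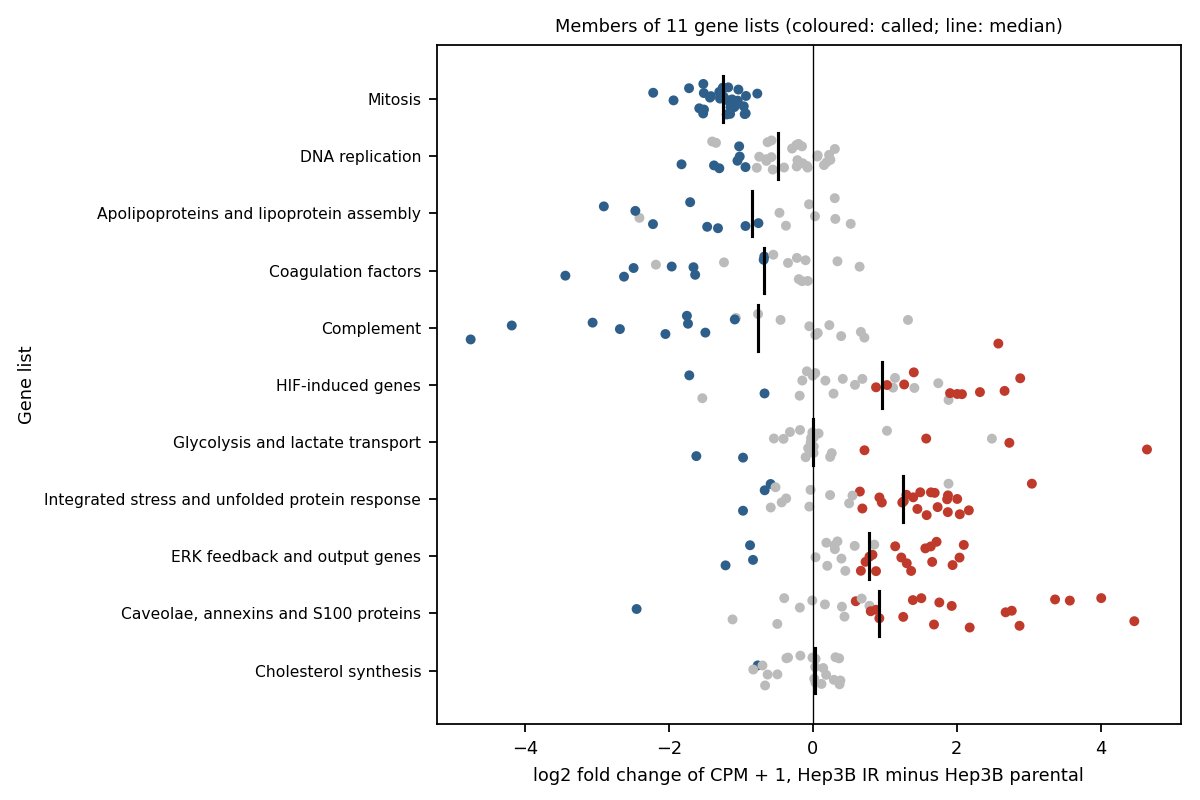
Log2 fold change of each member of 11 gene lists in Hep3B IR as compared to parental cells (x axis, on the scale of CPM + 1), with called genes in color, others in grey and the median as a line. All 30 mitosis genes lie below 0, and the genes of apolipoproteins, coagulation and complement reach further down than those of mitosis.

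Interferon-stimulated genes gave 10 rises and 0 falls among 30 (33.3% and 0% of members, against 15.7% and 11.4% of all genes). They stayed at low levels, as GBP2, a GTPase of immune defense, rose from 1.55 and 1.79 to 13.1 and 14 CPM (2.45 ± 0.38) and IFIT2 from 0.7 and 0.591 to 6.21 and 8.41 CPM (2.32 ± 0.34). There were 5 rises without the first IR library, and without the second parental library 6. Directly against CR cells, 5 of the 30 were lower in IR cells, against 6.41% of all genes. Among genes of antigen presentation and checkpoint ligands 3 rose and 1 fell of 22, with CD274, which encodes PD-L1, from 0.256 and 0.324 to 3.47 and 3.4 CPM (1.78 ± 0.27) and CD47, the signal that blocks phagocytosis, from 109 and 139 to 40.5 and 58.7 CPM (-1.31 ± 0.19). Chemokines and the IL6 family gave 8 rises and 5 falls among 28. IL18 rose from 8.44 and 6.81 to 136 and 95.5 CPM (3.74 ± 0.29), the chemokine CXCL12 from 42.3 and 38.7 to 293 and 202 CPM (2.56 ± 0.31) and LIF from 10.6 and 6.82 to 40.0 and 41 CPM (2.12 ± 0.28). Without the first IR library 5 rose and 3 fell, and without the second parental library 3 fell.

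Wnt and beta-catenin targets went both ways, with 8 rises and 8 falls among 24, where 15.7% of all genes rose and 11.4% fell. The receptor ROR1 rose from 0.0942 and 0.169 to 7.45 and 10.6 CPM (3.13 ± 0.32) and the ligand WNT7B from 0.39 and 0.338 to 5.69 and 5.12 CPM (2.23 ± 0.18), whereas the feedback gene NKD1 fell. Without the first IR or either parental library 4 of them rose, and without the second parental library 4 fell. HOX genes gave 1 rise and 5 falls among 16. Among keratins and progenitor markers 6 rose and 5 fell of 25. LIN28B, a fetal RNA-binding protein, fell from 172 and 199 to 51.8 and 59.7 CPM (-1.72 ± 0.19), KRT80 rose from 53.5 and 19.3 to 418 and 250.3 CPM (3.29 ± 0.51). With any 1 library left out 5 to 8 of these rose and 3 to 5 fell. Of 20 BCL2 family genes 4 rose and 1 fell, with the survival gene BCL2L1 from 326 and 298 to 609.6 and 523 CPM (0.86 ± 0.12), and 2 to 4 rose with any 1 library left out. Cytosolic ribosomal proteins gave 1 rise and 2 falls among 48, and lysosome genes 3 rises and 1 fall among 33.

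Directly against CR cells, which were kept in a constantly high concentration of Sorafenib, 801 genes (5.33%) were higher and 963 (6.41%) lower in IR cells. CYP2B6 was the most increased, at 271 and 407 CPM in IR against 3.56 and 1.83 CPM in CR cells (log2 difference 6.53 ± 0.39). COL4A5, a basement membrane collagen, was at 21 and 62.8 CPM in IR, 0.159 and 0.286 CPM in CR, 35 and 48.5 CPM in DMSO and 1.84 and 2.55 CPM in parental cells (4.94 ± 0.45), and C6 at 19.9 and 114 CPM against 0.371 and 1.45 CPM (4.74 ± 0.71). PEG10, the sialyltransferase gene ST3GAL1 and TXNIP were the most reduced. ST3GAL1 was at 1.66 and 1.02 CPM in IR, 44.8 and 47.4 CPM in CR and 0.458 and 0.38 CPM in parental cells, so for this gene (-4.34 ± 0.39) it was the CR cells that stood apart. SPART, at 2.31 and 1.18 CPM in IR and 33.3 and 27 CPM in CR cells, also differed (-3.53 ± 0.24). Without the first or second IR library the total of these calls was 1151 or 665, and without the first or second CR library 925 or 788. Comparisons of IR and of CR cells with parental cells share the parental libraries, and overlaps between them are not given.

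The change of IR cells was also set against that of Huh7 IR cells by an interaction term. It was more positive in Hep3B for 2214 genes (14.7%) and more negative for 3234 (21.5%), with a median of -0.12 over all genes that moved to 0.00 with TMM factors, where 2716 and 2818 genes were called. COL14A1, a collagen of the fibril surface, was at 3.62 and 5.74 CPM in parental and 108 and 108 CPM in IR Hep3B cells, and at 2188 and 2398 and 45.3 and 23.3 CPM in parental and IR Huh7 cells (difference of changes 10.38 ± 0.53). CYP2B6 was at 2.05 and 2.38 and 0.0497 and 0 CPM in parental and IR Huh7 cells (8.98 ± 0.56), and AFP at 3549 and 6269 and 3.12 and 2.79 CPM (8.49 ± 0.77), so AFP fell in both lines and further in Huh7. In the other direction stood MRAS (-8.07 ± 0.74), EVA1A (-7.75 ± 0.37) and ADAM19 (-7.48 ± 0.43). EVA1A fell from 11.2 and 17.1 to 0.334 and 0.441 CPM in Hep3B and was at 2.59 and 1.89 and 76.9 and 52.9 CPM in Huh7 cells. HIF1A was at 814 and 1138 CPM in parental and 437 and 566 CPM in IR Huh7 cells, and its change differed between the lines (1.82 ± 0.31).

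Falls gathered along parts of the genome. A running median of 51 neighboring tested genes went below -0.4 over at least 20 genes in 10 stretches, which were found from these values and are described without a test. They held 1305 genes (8.69% of those tested) and 615 of the 1710 genes called lower (36.0%). Within them 47.1% of genes were called lower, against 7.98% elsewhere, and 44 genes were called higher. The one with the most genes lay on the long arm of chromosome 1 at 145.7 to 179.9 Mb (GRCh37), from PDZK1 to TOR1AIP1, with 304 genes, a median log2 fold change of -0.65 and 154 genes called lower. Another one on that arm, at 202.3 to 243.4 Mb, held 211 genes (median -0.67, 109 lower). On chromosome 3, 281 genes from GLB1 to ARL6 at 33.0 to 97.5 Mb had a median of -0.63 with 143 lower, and on chromosome 11, 221 genes from HPS5 to GPR137 at 18.3 to 64.1 Mb had a median of -0.60 with 108 lower. Each of the 4 pairings of an IR with a parental library gave medians below -0.5 in these 4 stretches.

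The stretches were not all shared with CR cells. On chromosome 3 the median difference between IR and CR cells was -0.01 and CR cells lay below DMSO cells by a median of -0.64, whereas on chromosome 11 IR cells lay below CR cells by -0.51 and CR cells below DMSO cells by -0.07. On chromosome 13, at 24.6 to 39.6 Mb, where SPART lies, 25 of 52 genes were lower and the median difference from CR cells was -0.44. Huh7 IR cells lay below parental Huh7 cells by a median of -0.36 in the second large stretch of chromosome 1, and had medians of 0.13, 0.33 and 0.04 in the first and in those of chromosomes 3 and 11. The falls in the stretches were mostly small, as 55.8% of the genes called lower there were above -1, against 51.2% elsewhere. Outside them the median over all genes was 0.10. Of the mitosis genes, 28 of 28 members outside these stretches fell. The 2 members inside, CENPF and NUF2 on chromosome 1, were among the largest falls of that list, whose median was -1.25. Of 2 stretches with higher expression, the one with more genes spanned 140.6 to 145.6 Mb of chromosome 5, which holds the protocadherin cluster. There 31 of 51 genes rose (median 0.98), and the overlapping genes share reads. In that stretch IR cells lay above CR cells by a median of 0.095, and CR cells above DMSO cells by 1.16. Huh7 IR cells lay above parental Huh7 cells there by a median of 1.26. What underlies the stretches was not tested.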

How the data were processed

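RNA of 16 libraries was sequenced as single-end reads, in 8 groups of 2 replicates taken from the sample titles. The labels give 200 ng of RNA, poly(A) selection with a TruSeq stranded mRNA kit and 75 cycles, while the methods of the study give a stranded total RNA kit, 81 cycles on another instrument and biological triplicates. The authors mapped reads to hg19 with STAR, kept unique hits, counted reads over RefSeq exons with QuasR and deposited CPM values, that is counts divided by the total of each library with no further factor. Of 26258 gene IDs, 26111 were matched to a symbol. All values (100%) were whole reads within a tolerance of 0.05, and totals recovered in this way lay between 46613302 and 76860251 reads.

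Values were analysed as log2(CPM + 1) with limma 3.58.1 (R 4.3.3, mean-variance trend) in one fit of all 8 groups, over the 15019 genes that reached 1 CPM in 2 or more libraries. Contrasts were Hep3B IR against parental, DMSO and CR cells, and the difference from the change of Huh7 IR cells. Thresholds were a Benjamini-Hochberg adjusted p of 0.05 over all genes and an absolute log2 fold change of 0.58. The study used edgeR. Fits were tested on simulated data. Alternatives were edgeR 4.0.16 and DESeq2 1.42.0 on recovered reads, TMM factors, quantile normalization, pseudocounts of 0.25 and 4 CPM, a filter of 5 CPM, no filter, Hep3B libraries alone, the groups compared alone, a replicate block, each library left out, the unadjusted p and DMSO cells as reference.

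The 50 lists of genes were written from general knowledge of the pathways, and they and the members of this comparison were chosen with earlier results of these data known. Lists are described by counts and medians beside those of all genes, without a set test. Genes were named as the 15 largest rises and falls among called genes whose groups did not overlap, up to 4 called genes a list with members that were not called, the 3 largest differences each way from CR and from Huh7 cells, the 5 with the largest gap between IR libraries, the 5 highest switched on or off, and HIF1A, EPAS1, USP29, HK2, SLC16A3, SLC16A8, SLC2A1, PDK1, AFP and ALB. Some genes that these rules choose are not reported here. SERPINA1, PLK1, MAD2L1, MKI67, ATF4, DDIT3, ASNS, ATF3, HERPUD1, PDIA4, HSP90B1, MANF, DUSP7, ETV1, LDHA, TFRC, CAV1, CAVIN2, CD68 and HJV fall outside the 4 of their list or were singled out after their values were seen. Gene positions are those of the GENCODE annotation on GRCh37, and promoter sequences are from RefSeq (GRCh38.p14).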

Additional observations from a re-analysis of the deposited data

Results flagged for a closer look

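Of 230 named genes tested, 128 changed differently in Hep3B IR than in Huh7 IR cells by limma's interaction term (adjusted p under 0.05 and a log2 difference of 0.58 or more in size), 76 with a more positive and 52 with a more negative change, against 14.7% and 21.5% of all genes tested. Most of the named genes were chosen for a large change in Hep3B cells or for this difference. Values follow for the 36 that passed among 44 genes, which are the largest rises and falls, the largest differences from CR and Huh7 cells and the genes named whatever their value. Values are the log2 fold change in Hep3B minus that in Huh7 cells, and the median over all genes tested was -0.12. The difference was negative for MRAS -8.07, EVA1A -7.75, ADAM19 -7.48, TXNIP -6.40, CHODL -6.37, PEG10 -5.71, IGDCC3 -4.37, COL5A2 -4.34, C2 -4.25, SPART -4.25, NKD1 -4.09, MCC -3.82, HS3ST3B1 -2.83, C3 -2.63, ITGA3 -2.26, AXL -2.23, SLC16A3 -2.22 and CER1 -1.91. It was positive for HIF1A 1.82, CDKN1A 2.76, ALB 2.79, SLITRK6 3.06, COL4A5 3.80, SCD5 4.32, LONRF2 4.42, MAP1B 4.45, IGFBP7 4.78, AGR2 5.30, SCEL 5.63, SULT1E1 5.88, AKR1C2 5.94, AKR1C1 6.21, TM4SF1 6.75, AFP 8.49, CYP2B6 8.98 and COL14A1 10.38. A positive difference can stand for a smaller fall, as for AFP and ALB. With groups of 2 no test for a single outlying library could be made.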

How the results depend on the processing

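Of 219 named genes called changed as compared to parental cells, 0 to 19 lost the call under each alternative that kept all libraries and the parental reference, most of them without a filter, and 0 reversed. No reversal was possible where the fold changes stay as they are, as with Hep3B libraries alone, the groups compared alone, the replicate block, no filter and the unadjusted p. With 1 library left out 28 to 45 lost it, where the lone library of its group is assumed to vary like the others. With DMSO cells as reference 21 lost it, and COL4A5 (-0.17) and SERPINA1 (-0.34) reversed. Among genes that were not called, SLC16A3 reversed with DESeq2 (-0.068), TMM factors (-0.048), edgeR (-0.052), quantile normalization (-0.084) and DMSO cells (-0.52), and lay between -0.027 and 0.048 with 1 library left out. PDK1 lay between -0.35 and 0.30 with 1 library left out. HNF4A reversed without the second IR library (0.18) and LUM with DMSO cells (0.79). DUSP6 reversed with TMM factors (-0.025) and DMSO cells (-0.32), and lay between -0.42 and 0.49 with 1 library left out. The cause of these reversals was not tested.

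The number of genes called against parental cells was 4063, 4288 with edgeR (2279 higher, 2009 lower), 4670 with DESeq2 (2442 and 2228) and 2717 to 3361 with 1 library left out. Against CR cells it was 1764, 2671 by the unadjusted p and 665 to 1151 with 1 library left out. Each of these 4 fits left out 1 library and moved the count by over 1.5 times. Why the count differed with the library left out was not tested. Of 749 medians of lists under the alternatives, 598 moved by less than the spread between replicates and 151 by more. Hep3B libraries alone, the groups compared alone, the replicate block and no filter leave the fold changes as they are. Medians under these settings could not move, and they are among the 598.

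The labels do not say what libraries of 2 groups with the same replicate number share besides that number. Their deviations from the group means correlated at 0.21 between parental and IR, 0.24 between IR and CR and 0.04 between DMSO and IR cells. The values were 0.26 between parental and CR, 0.11 between DMSO and CR and -0.16 between parental and DMSO cells. With the replicate block 4080 genes were called against parental (2349 higher, 1731 lower), 4826 against DMSO and 1757 against CR cells, and 5495 for the difference from Huh7.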
